A study of Mus musculus with 2 samples.

Results

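The genes described here handle iron in tumor-infiltrating immune cells (TIIs): *Trf*, *Tfrc*, *Fth1*, *Ftl1*, *Slc40a1*, *Slc11a1* and *Hmox1*, 7 of the 31053 genes counted. They were chosen by name with earlier values of the same cells in view, namely their UMIs per 1000000 UMIs of a class (CPM) in macrophages, monocytes, dendritic cells (DCs) and CD8 T cells. Their levels and differences are therefore descriptions without a test. Single-cell RNA sequencing (scRNA-seq) was performed on TIIs of male C57BL/6J (B6) mice aged 8 to 12 weeks that carried subcutaneous B16-OVA tumors, a mouse melanoma line that expresses ovalbumin. Control mice were given PBS, and creatine mice 10.5 mg of creatine each day by intraperitoneal injection. On day 14, live CD45.2+ cells were sorted from 4 combined tumors a group, and 10000 cells a group were loaded. Other passages of the study, 1 of them on the sorting of TIIs, name a different day or number of mice. The day and number of tumors used here are those of its scRNA-seq methods. There was 1 library per group, so no spread between mice could be measured, and every interval below covers counting error only. The protocol text of both libraries names the creatine injection, and the grouping rests on the treatment label, PBS or creatine.

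Iron travels in blood bound to transferrin, the product of *Trf*, and enters cells when transferrin docks on its receptor, encoded by *Tfrc*. Inside the cell, spare iron is packed into ferritin, a shell built of heavy chains (*Fth1*) and light chains (*Ftl1*), and it leaves through ferroportin (*Slc40a1*), the exporter of iron from cells. Macrophages also recover iron from engulfed cells: heme oxygenase 1 (*Hmox1*) opens the heme ring and frees its iron, and the transporter NRAMP1 (*Slc11a1*) moves metal ions out of the phagosome. Dividing cells draw on transferrin iron for DNA synthesis and respiration.

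Several of these transcripts carry an iron-responsive element, a short hairpin with a CAGTGN loop and a bulged C that iron regulatory proteins bind when iron is scarce. Bound in a 5′ UTR it blocks translation, and in the 3′ UTR of *Tfrc* it protects the RNA from decay. The hairpins are shown because they tie storage, export and uptake to 1 switch that a count of RNA sees only in part. They were searched in the RNA strand of GENCODE M21 transcripts as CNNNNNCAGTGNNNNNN with all 5 bases of the stem paired, G with T allowed. Capitals mark the loop.
Fth1: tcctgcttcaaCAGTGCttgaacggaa
Ftl1: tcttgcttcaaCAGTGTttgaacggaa
Slc40a1: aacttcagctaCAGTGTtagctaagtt
Tfrc hairpin A: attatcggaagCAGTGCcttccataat
Tfrc hairpin B: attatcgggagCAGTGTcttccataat
Tfrc hairpin C: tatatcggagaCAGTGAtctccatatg
Tfrc hairpin D: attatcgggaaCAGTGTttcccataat

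Those of *Fth1* (chr19:9982733-9982759, plus strand), *Ftl1* (chr7:45459780-45459806, minus strand) and *Slc40a1* (chr1:45925466-45925492, minus strand) lie in the 5′ UTR, in exon 1, in GRCm38. The 4 matches in *Tfrc*, lettered A to D here by position only, lie in the 3′ UTR, in the last of its 19 exons. They are at chr16:32631220-32631246, chr16:32631599-32631625, chr16:32631664-32631690 and chr16:32631711-32631737 on the plus strand. The letters are not names of known elements, and a hairpin with another loop or an unpaired stem base would be missed. The same search matched the 5′ UTR of 31 of 20597 genes (0.151%) and the 3′ UTR of 129 of 20979 (0.615%). No UTR of *Trf*, *Slc11a1* or *Hmox1* held a match, which says only that these letters are not there.

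The control library kept 7241 cells with 79319769 UMIs, a median of 7688 per cell, and the creatine library 6229 cells with 72091124 UMIs, a median of 8475. Cells were gated by markers that exclude the 7 genes, at least 3 markers of a class in a cell, and each class is called by the name of its marker list. Macrophages numbered 905 (control) and 333 (creatine), classical monocytes 496 and 779, and nonclassical monocytes 67 and 131. The DC classes were small, with 78 and 43 cDC1, 93 and 26 cDC2, 37 and 10 *Ccr7*+ DCs, and 37 and 22 pDCs. Dividing CD8 T cells, with at least 3 of 10 dividing markers, numbered 796 and 580, and non-dividing CD8 T cells, with none, 581 and 537. The CD8 T cells between these, 770 and 550, entered neither class, and 38.1% and 37.3% of all cells entered no class. Of the genes read as a check that no gate used, most were highest in the class they are known for. *Cd68*, a gene of macrophage lysosomes, reached 1100 and 1240 CPM in macrophages against 14.1 and 8.89 CPM in dividing CD8 T cells, *Cd5*, a T cell gene, lay between 68.6 and 74.9 CPM in both CD8 classes, and *Cx3cr1*, a chemokine receptor of patrolling monocytes, peaked in nonclassical monocytes. *Batf3*, a transcription factor of cDC1, was less specific, at 160 and 180 CPM in cDC1 but 247 CPM in control *Ccr7*+ DCs and 117 CPM in creatine classical monocytes. Of the cells kept, 29 barcodes were found in both libraries. A UMI marks 1 captured transcript near its 3′ end, so levels are compared between cells and not between genes.

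*Tfrc*, on chromosome 16 (32608920 to 32632794, plus strand), was highest, among the 9 classes, in pDCs and dividing CD8 T cells in both libraries and lowest in monocytes and *Ccr7*+ DCs. Its level in pDCs was 335 CPM (95% Poisson interval 269–413) in control and 229 CPM (168–305.5) in creatine cells. Dividing CD8 T cells held 130 CPM (124.5–136.5) and 150 CPM (143–157), and non-dividing CD8 T cells 39.7 and 39.0 CPM. Classical monocytes stood at 15.8 and 11.4 CPM and nonclassical monocytes at 15.4 and 16.3 CPM, and these monocyte intervals overlapped. In *Ccr7*+ DCs, 0 and 1 UMIs of *Tfrc* were counted. Macrophages lay between, at 41.2 CPM in the control library, where their interval overlapped that of non-dividing CD8 T cells, and at 76.7 CPM in the creatine library, where it did not.

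**Figure D1:**
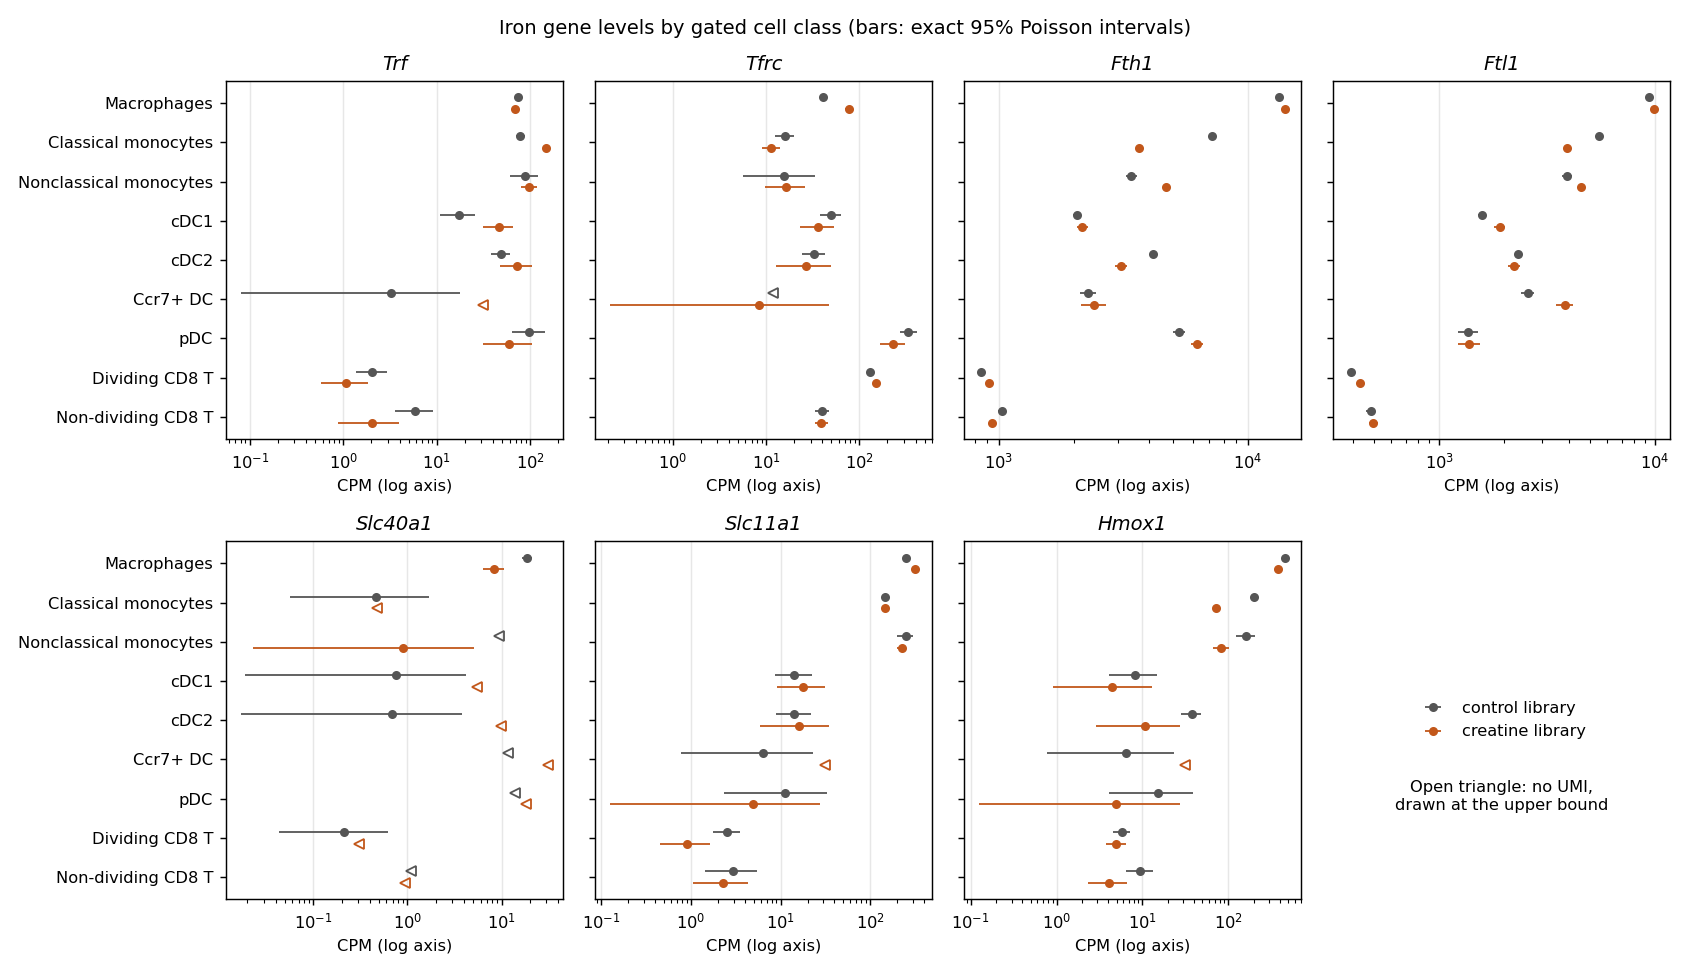
CPM of each iron gene (x, log axis) in the 9 gated classes (y) for the control and creatine libraries. Points are sums over the cells of a class, bars exact 95% Poisson intervals, and open triangles the upper bound where no UMI was counted. *Tfrc* peaks in pDCs at 335 and 229 CPM, the ferritin chains, *Slc40a1* and *Hmox1* in macrophages.

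The rise of *Tfrc* with division was graded. In CD8 T cells, it went from 39.7 CPM in control cells without a dividing marker to 68.8 CPM with 1 or 2 markers, 114 CPM with 3 to 5, 140 CPM with 6 to 8 and 133 CPM with 9 or 10. The creatine library gave 39.0, 63.9, 129, 160 and 155 CPM over the same bins. Both series climbed to 6 to 8 markers and then stayed level within their intervals. Dividing over non-dividing CD8 T cells, the log2 ratio was 1.72 (1.46–1.98) in control and 1.95 (1.71–2.19) in creatine cells. Of the 4 members with at least 50 UMIs, *Tfrc* alone was at least 1.5-fold higher there, while 21.2% of all genes in control and 21.6% in creatine cells were. *Hmox1* was lower by that fold in dividing cells of the control library, −0.72 (−1.32 to −0.08), where 15% of all genes were, and not of the creatine library, 0.30 (−0.52 to 1.19), where 13.4% were. These *Hmox1* levels, 5.77 CPM in dividing and 9.47 CPM in non-dividing control cells, did not exceed the 11.0 CPM of control NK cells. The macrophage list summed to 140 and 268 CPM in the same 2 classes. In the creatine library *Hmox1* stood at 4.99 and 4.05 CPM, above the 3.31 CPM of NK cells but with intervals that overlapped. The macrophage list there summed to 62.5 and 117 CPM. The part of background RNA in these levels was not tested. Depth rose along the same bins, from a median of 5585 to 20922 UMIs per control cell. When each cell was thinned to 2000 UMIs, *Tfrc* was found in 20.8% (18–23.8%) of dividing and 6.45% (4.51–8.90%) of non-dividing control cells, and in 22.8% and 6.30% of creatine cells. In NK cells, read as background for free RNA although they may express the gene, the share was 5.58% and 3.75%.

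**Figure D2:**
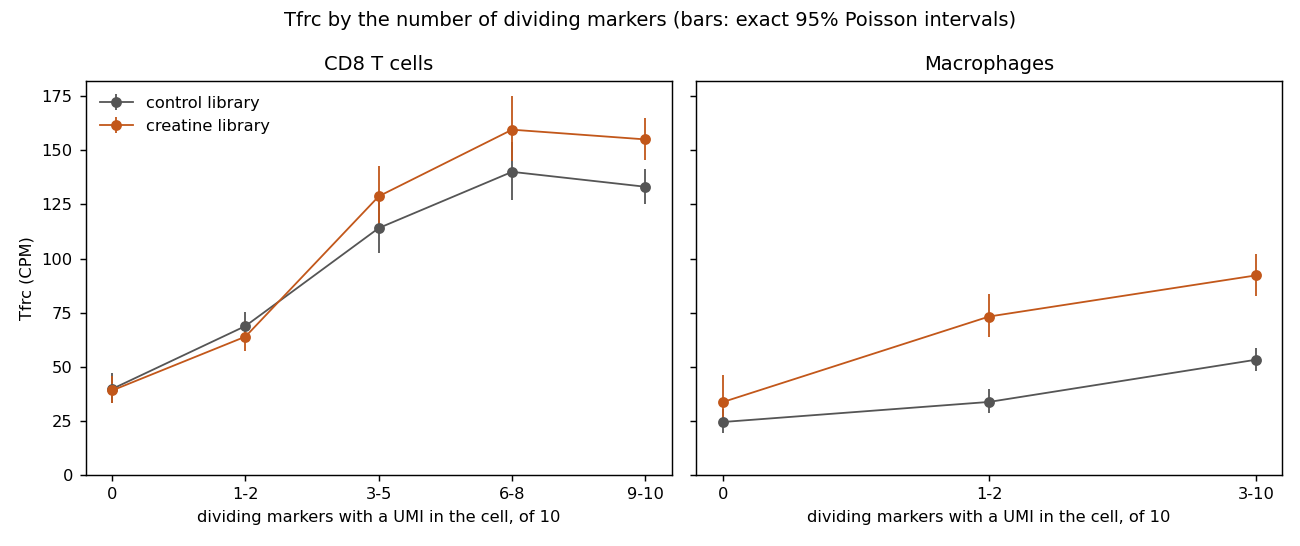
*Tfrc* CPM (y) against the number of 10 dividing markers with a UMI in the cell (x), in CD8 T cells and in macrophages of the control and creatine libraries, with exact 95% Poisson intervals. In CD8 T cells the control library climbs from 39.7 to 140 CPM and the creatine library from 39.0 to 160 CPM, and in macrophages the creatine library lies above the control in each bin, with intervals that overlap only in cells without a dividing marker.

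Macrophages showed the same grading of *Tfrc* at a lower level. Control macrophages held 24.4 CPM without a dividing marker, 33.7 CPM with 1 or 2, and 53.2 CPM with 3 to 10. Creatine macrophages held 33.6, 73.2 and 92.2 CPM. The dividing marker list summed to 687 CPM in control and 760 CPM in creatine macrophages.

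*Trf*, on chromosome 9 (103204001 to 103230444, minus strand), was a transcript of monocytes, macrophages, pDCs and cDC2 and was near 0 in T cells. Control pDCs held 98.0 CPM, nonclassical monocytes 87.1 CPM, classical monocytes 78.1 CPM and macrophages 73.6 CPM, and these 4 neighbours did not differ beyond their intervals. In the creatine library classical monocytes led with 146 CPM (137–154) and stood apart from nonclassical monocytes at 97.9 CPM (80.3–118). CD8 T cells held at most 5.92 CPM in either library. NK cells, where *Trf* RNA would be read as background, held 14.9 and 17.6 CPM. The gene model *Gm20425* shares the end of the *Trf* transcript, so reads there could be split between them, but no UMI of it was counted in any class.

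Ferritin RNA filled a large part of the macrophage transcriptome. *Fth1* (chromosome 19, 9980598 to 9985098, plus strand) and *Ftl1* (chromosome 7, 45457944 to 45459884, minus strand) took together 2.28% of all macrophage UMIs in control and 2.40% in creatine cells. *Fth1* reached 13364 CPM (13305–13423) in control macrophages, 7165 CPM in classical monocytes, 5284 CPM in pDCs, 4143 CPM in cDC2 and 3411 CPM in nonclassical monocytes. It was at 2275 CPM in *Ccr7*+ DCs, 2056 CPM in cDC1, 1027 CPM in non-dividing and 850 CPM in dividing CD8 T cells. *Ftl1* followed in macrophages at 9403 CPM and in classical monocytes at 5485 CPM, with dividing CD8 T cells again lowest at 389 CPM. Every class held ferritin UMIs, and at 2000 UMIs a cell *Fth1* was found in 99.4% of control macrophages and 78.6% of control dividing CD8 T cells. It was found in 87.5% of thinned control NK cells, and NK cells held 1147 and 1009.5 CPM of it. The *Fth1* levels of CD8 T cells did not exceed those of NK cells, and the part of background RNA in them was not tested. A pseudogene of the light chain, *Ftl1-ps1*, shares 69.8% of the 50-base windows at the *Ftl1* 3′ end, and its 130 and 107.5 CPM in macrophages may hold reads of *Ftl1*.

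The number of heavy chain UMIs per light chain UMI differed between classes. It is compared only between classes, since UMIs are not compared between genes and *Ftl1* may lose reads to *Ftl1-ps1*. Heavy chain UMIs per light chain UMI numbered 3.89 (3.47–4.38) in control and 4.55 (3.99–5.20) in creatine pDCs. There *Ftl1* was lowest among myeloid classes, at 1357 and 1374 CPM, although its control interval met that of cDC1 at 1570 CPM. Dividing CD8 T cells held 2.19 and 2.12 heavy chain UMIs per light chain UMI, and macrophages 1.42 and 1.43. *Ccr7*+ DCs held fewer, with 0.885 (0.799–0.981) and 0.631 (0.542–0.733). In classical monocytes the ratio was 1.31 in control and 0.938 in creatine cells, and in nonclassical monocytes 0.875 and 1.04. The monocyte kinds thus had opposite orders in the libraries.

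**Figure D3:**
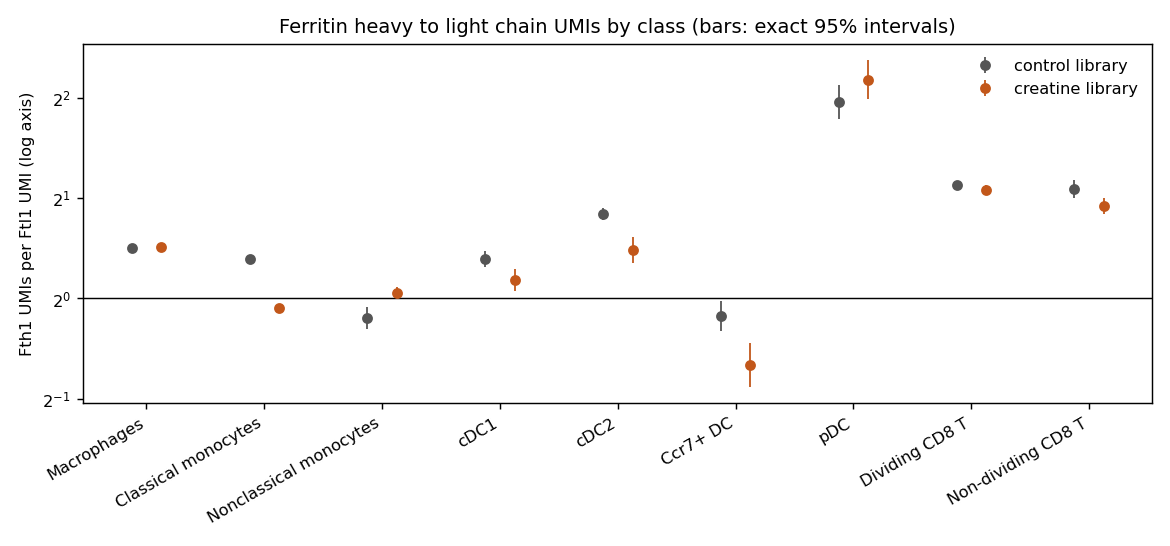
*Fth1* UMIs per *Ftl1* UMI (y, log axis) in each gated class (x) for the control and creatine libraries, with exact 95% intervals of counting error. pDCs sit highest at 3.89 and 4.55, and *Ccr7*+ DCs lowest in the creatine library at 0.631. The line marks equal UMI counts, which need not be equal amounts of the transcripts.

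*Hmox1*, on chromosome 8 (75093621 to 75100589, plus strand), and *Slc11a1*, on chromosome 1 (74375195 to 74386062, plus strand), were, among the 9 classes, highest in macrophages and monocytes. *Hmox1* reached 456 CPM (445–467) in control and 384 CPM (371–398) in creatine macrophages. Control classical and nonclassical monocytes followed at 199 and 161 CPM with intervals that overlapped. It was at 37.4 and 10.7 CPM in cDC2 and at most 15.1 CPM in pDCs, cDC1, *Ccr7*+ DCs and CD8 T cells. Its RNA was uneven among macrophages: the median control cell held 197 CPM and the cell at the 90th percentile 976 CPM, and the upper 10% of cells held 57.1% of its UMIs. *Slc11a1* stood at 249 CPM in control macrophages and 248.5 CPM in control nonclassical monocytes, which did not differ beyond their intervals, and at 145 CPM in classical monocytes of both libraries. Outside the 9 classes, cells gated by neutrophil markers held 261 CPM (177–370) and 288 CPM (186–425) of it. All DC classes held at most 17.8 CPM of it and CD8 T cells at most 2.96 CPM. In the creatine library macrophages held 319 CPM (307–332) and nonclassical monocytes 224 CPM (197–254). The end of the *Slc11a1* transcript shares windows of 50 bases with 53 other genes, at most 3.1% of its windows with any of them.

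*Slc40a1*, on chromosome 1 (45908068 to 45926523, minus strand), was almost limited to macrophages among the 9 classes. Control macrophages held 274 UMIs, 18.6 CPM (16.4–20.9), and creatine macrophages 66 UMIs, 8.27 CPM (6.39–10.5). The other 8 classes held at most 3 UMIs each. Few macrophages carried it: 81 of 905 control cells (8.95%, 7.17–11%) and 25 of 333 creatine cells (7.51%, 4.92–10.9%) had a UMI. After thinning to 2000 UMIs, these were 29 of 863 (3.36%, 2.26–4.79%) and 3 of 317 (0.946%, 0.196–2.74%). The intervals of the libraries overlapped both times, so the share of cells gives no clear order. In NK cells, with medians of 3844 and 5234 UMIs against 14682 and 22000 in macrophages, the shares before thinning were 0.188% and 0.121%. After thinning 0 of 502 and 0 of 800 NK cells had a UMI, which at 3 counts of the total allows a share of cells with a UMI of up to 0.598% and 0.375%.

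Macrophages held more of most members than classical monocytes did. In the control library 6 of 7 members were at least 1.5-fold higher in macrophages, all but *Trf*, and 22.5% of all genes passed that fold. In the creatine library these were again 6, against 25% of all genes, and *Trf* was lower, with a log2 ratio of −1.07 (−1.22 to −0.92). Lower by that fold were 10.8% of all genes in control and 16.9% in creatine cells. *Tfrc* was higher in macrophages by 1.38 (1.01–1.76) on the log2 scale in control and 2.75 (2.43–3.09) in creatine cells, and *Hmox1* by 1.20 (1.09–1.30) and 2.41 (2.28–2.54). *Slc40a1* held 274 against 2 UMIs in the control library, a log2 ratio of 5.32 (3.45–8.37). In the creatine library its 8.27 CPM in macrophages stood against no UMI in classical monocytes, where 3 UMIs would be 0.389 CPM.

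Creatine and control macrophages differed by 1.5-fold in 2 of 7 members. *Tfrc* was higher in the creatine library, 76.7 against 41.2 CPM, a log2 ratio of 0.90 (0.73–1.06), where 2.63% of all genes were higher by that fold. Its RNA was uneven: the median macrophage held 0 CPM in both libraries, and the cell at the 75th percentile 47.9 CPM in control and 70.4 CPM in creatine cells. The upper 10% of cells held 59.5% of its UMIs in control and 66.7% in creatine macrophages. *Slc40a1* was lower, with a log2 ratio of −1.17 (−1.58 to −0.77), where 4.29% of genes were lower. The receptor that brings iron in and the exporter that lets it out thus stood in opposite order in the libraries. *Slc11a1* had a log2 ratio of 0.36 (0.29–0.43), *Fth1* of 0.08, *Ftl1* of 0.07, *Trf* of −0.09 and *Hmox1* of −0.25 (−0.31 to −0.19), all short of the fold.

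**Figure D4:**
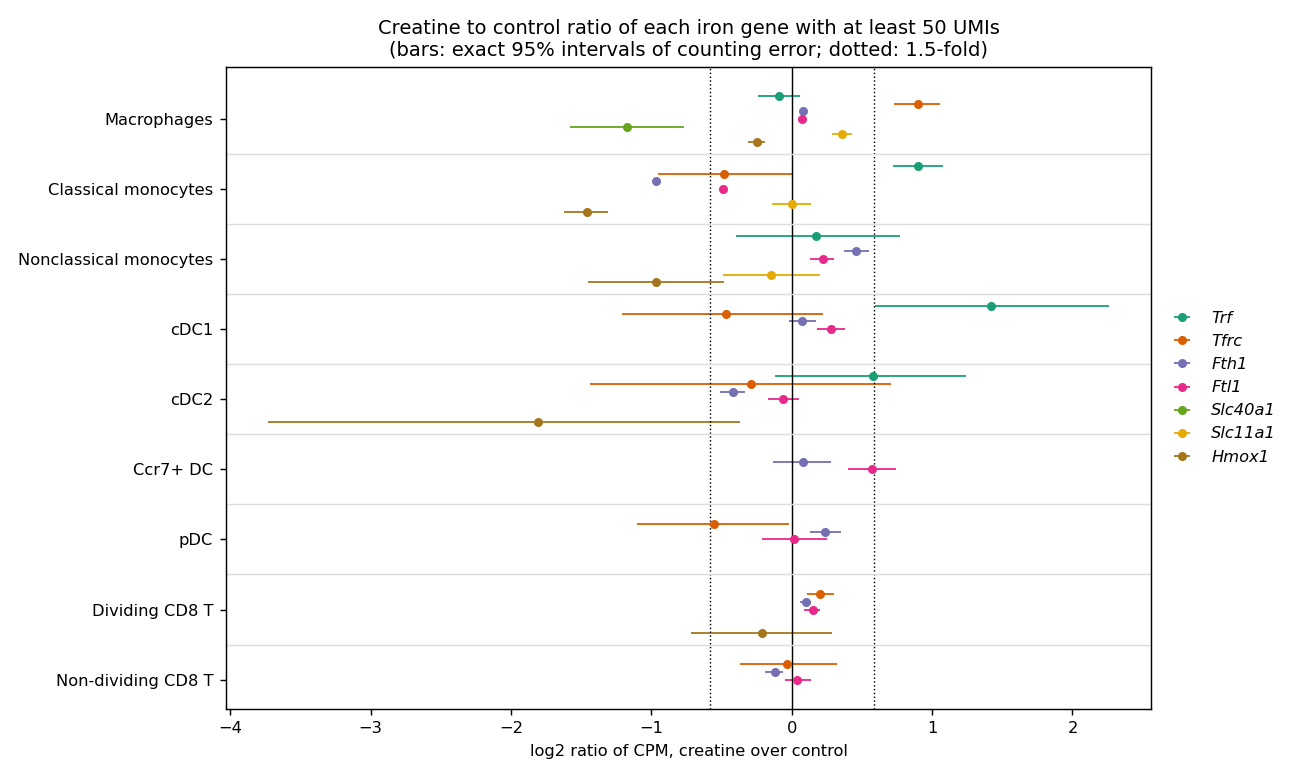
Log2 ratio of CPM, creatine over control (x), of each iron gene with at least 50 UMIs over both libraries in each gated class (y). Bars are exact 95% intervals of counting error and dotted lines mark 1.5-fold. *Tfrc* (0.90) and *Slc40a1* (−1.17) lie on opposite sides in macrophages, and *Hmox1* is past the lower line in classical monocytes, nonclassical monocytes and cDC2. In each of these classes the upper 10% of control cells hold most of its control UMIs: 70.5% in classical monocytes, 81% in nonclassical monocytes and 87.3% in cDC2.

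The *Tfrc* difference was read again among macrophages of like division, where it was past the fold only in cells with a dividing marker. With 1 or 2 dividing markers the log2 ratio was 1.12 (0.81–1.43), with 3 to 10 markers 0.79 (0.58–1.01), and with none 0.46 (−0.13 to 1.03). Thinned to 2000 UMIs, *Tfrc* was found in 4.87% (3.53–6.52%) of control and 8.20% (5.43–11.8%) of creatine macrophages, but thinned to 1000 UMIs in 3.51% and 2.45%, so the share of cells gives no order. *Slc40a1* was lower in the creatine library in each bin of dividing markers, at 10.2, 20.5 and 21.1 CPM in the control against 3.45 (0.94–8.83), 12.8 and 6.22 CPM. These rest on 4, 38 and 24 UMIs, and the intervals of the libraries overlapped in the bins of 0 and of 1 or 2 markers. *Hmox1* was lower in macrophages without a dividing marker, with a log2 ratio of −0.71 (−0.88 to −0.56), and near equal in those with 1 or 2, 0.01 (−0.08 to 0.11). With 3 to 10 markers *Hmox1* was again lower, −0.33 (−0.43 to −0.23), short of the fold. *Slc11a1* passed the fold only without a dividing marker, where it was higher, 0.68 (0.50–0.86). Its log2 ratio was 0.40 (0.28–0.53) with 1 or 2 markers and 0.20 (0.09–0.30) with 3 to 10. Creatine macrophages were deeper, with a median of 22000 against 14682 UMIs. The macrophage marker list summed to 20023 CPM in control and 23387 CPM in creatine cells, with *Ccl8* as the 1 marker of 8 past the fold, and their part in the result was not tested. Erythroid RNA was near 0, with a list sum of 0.542 and 0 CPM.

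Classical monocytes differed in 3 of the 6 members with at least 50 UMIs. *Hmox1* was lower in the creatine library, 72.3 CPM (66.4–78.5) against 199 CPM (186–213), a log2 ratio of −1.46 (−1.62 to −1.31). *Fth1* was lower, 3663 against 7165 CPM, with a log2 ratio of −0.97 (−0.99 to −0.94). *Trf* was higher, 146 against 78.1 CPM, with a log2 ratio of 0.90 (0.72–1.08). Among all genes 7.48% were higher and 7.6% lower by the fold. *Ftl1* pointed the same way as *Fth1* with a log2 ratio of −0.49 (−0.51 to −0.47), *Tfrc* had −0.48 (−0.95 to 0.00), and *Slc11a1* stood at 145 CPM in both libraries.

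The per-cell values kept the order of the sums, but *Hmox1* was uneven. Its median was 0 CPM in classical monocytes of both libraries, and the cell at the 75th percentile held 150 CPM in control and 99.9 CPM in creatine cells. The upper 10% of cells held 70.5% of its UMIs in control and 60.8% in creatine cells. The median classical monocyte held 3803 CPM of *Fth1* in control and 2493 CPM in creatine cells, and the cell at the 90th percentile 15046 and 5566 CPM. After thinning to 2000 UMIs, 18.9% (15.5–22.7%) of control and 10.1% (8.08–12.5%) of creatine classical monocytes held *Hmox1*, against 2.59% and 0.625% of NK cells. *Trf* was found in 13.3% (10.4–16.7%) and 23.8% (20.8–27.0%), against 2.79% and 3.75% of NK cells. Both shares lay above those of NK cells and kept the order of the CPM.

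Markers of macrophages moved with these differences. Of the 8 macrophage markers, 6 were lower by the fold in creatine classical monocytes, and the list summed to 4182 CPM in control and 2911 CPM in creatine cells, with *C1qa* at 203 and 77.7 CPM. The 3 differences were read again in the 223 control and 471 creatine classical monocytes without a UMI of *C1qa*, *C1qb* or *C1qc*. *Hmox1* stood at 170 and 76.3 CPM, a log2 ratio of −1.15 (−1.38 to −0.92), *Fth1* at 7790 and 3055 CPM, −1.35 (−1.38 to −1.32), and *Trf* at 79.2 and 162.8 CPM, 1.04 (0.78–1.31). All 3 stayed past the fold in these cells, which could still hold other macrophage markers. Only 11 control and 42 creatine cells had none of the 8 markers. There *Hmox1* held 5 and 12 UMIs, with a log2 ratio of −1.22 (−2.83 to 0.64), and *Trf* 1 and 25 UMIs, 2.16 (−0.45 to 7.52). *Fth1* had −0.67 (−0.84 to −0.50) in them. The part of macrophage RNA in the 3 differences was not tested. Over all classical monocytes, the classical monocyte list itself summed to 7250 CPM in the control and 10024 CPM in creatine cells. The dividing list summed to 81.1 and 42.6 CPM, and melanoma markers to 48.5 and 20.3 CPM. *Cx3cr1* stood at 103 and 293 CPM, with a UMI in 29.2% and 59.6% of the cells, and *Batf3* at 55.9 and 117 CPM. The part of these differences in the result was not tested.

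**Figure D5:**
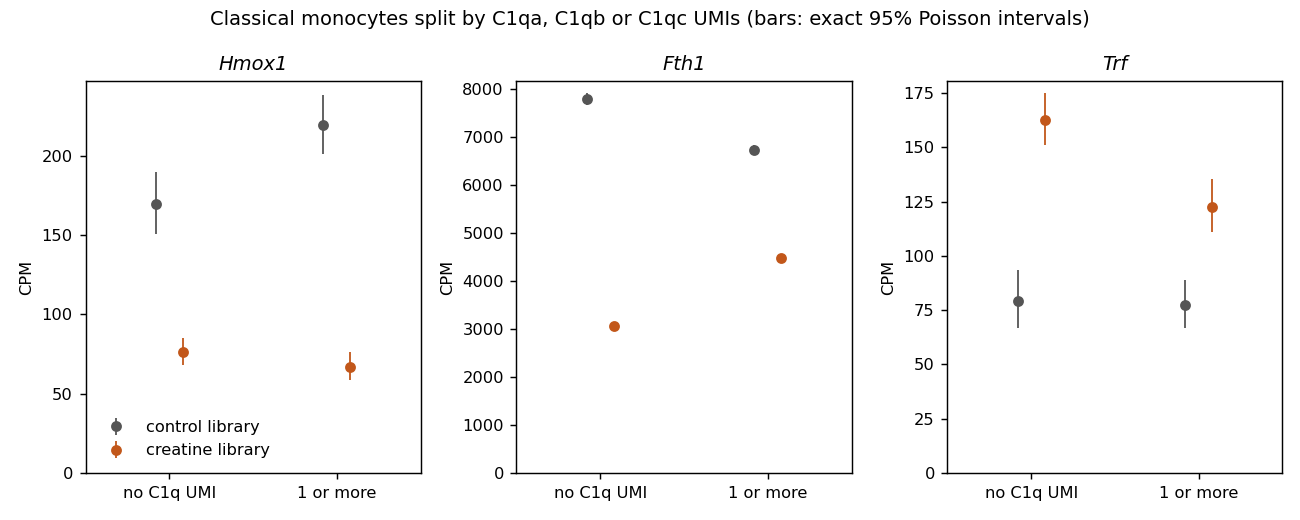
CPM (y) of *Hmox1*, *Fth1* and *Trf* in classical monocytes without and with a UMI of the C1q genes (x), in the control and creatine libraries, with exact 95% Poisson intervals. Without C1q UMIs, *Fth1* stands at 7790 CPM in control and 3055 CPM in creatine cells, *Hmox1* at 170 and 76.3 CPM, and *Trf* at 79.2 and 162.8 CPM.

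In nonclassical monocytes *Hmox1* was the 1 member of 5 past the fold, with 161 CPM (124–207) in the control and 82.5 CPM (66.4–101) in creatine cells, a log2 ratio of −0.97 (−1.45 to −0.48). The upper 10% of the 67 control cells held 81% of its 63 UMIs, the cell at the 75th percentile held 111 CPM in control and 114.5 CPM in creatine cells, and 28.4% and 33.6% of cells had a UMI, so the summed difference rests on few control cells. Of all genes 8.96% were higher and 5.15% lower. *Fth1* went the other way from classical monocytes, at 3411 and 4693 CPM, with a log2 ratio of 0.46 (0.37–0.55), short of the fold. The upper 10% of cells held 48.5% of its UMIs in control and 59.6% in creatine cells, and the median cell held 1803 and 2100.5 CPM. With equal weight for each cell its log2 ratio was 0.29. *C1qa* was lower here too, with 14 and 15 UMIs, or 35.9 and 13.6 CPM. *C1qb* stood at 79.4 and 12.7 CPM and *C1qc* at 51.25 and 12.7 CPM, while *Ms4a7* was higher at 10.25 and 16.3 CPM, all under 50 UMIs. The macrophage list summed to 3961 and 3500 CPM, of which *Apoe* held 3736 and 3408.5 CPM, and the part of these markers was not tested.

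Among cDC1, *Trf* was higher in the creatine library with 31 UMIs, 46.0 CPM (31.3–65.3), against 23 UMIs, 17.3 CPM (10.9–25.9), a log2 ratio of 1.42 (0.59–2.26). Thinned to 2000 UMIs, *Trf* was found in 2 of 77 control cDC1 (2.6%, 0.316–9.07%) and 3 of 39 creatine cDC1 (7.69%, 1.62–20.9%). These intervals hold the 2.79% and 3.75% of NK cells. *Trf* was the 1 member of 4 past the fold, and 10.3% of all genes were higher and 9.05% lower. Complement genes of macrophages moved with it, with *C1qa* at 34.5 and 126 CPM, 3 of the 4 macrophage markers measured higher and the list at 262.5 and 545 CPM. All 10 dividing markers were lower, with a list sum of 1483 and 575 CPM, and the 3 classical monocyte markers measured were higher, with a sum of 1046 and 2005 CPM. Among cDC2, *Hmox1* was lower, 4 against 55 UMIs, a log2 ratio of −1.81 (−3.73 to −0.37) and the 1 member of 5 past the fold, while 11.2% of genes were higher and 11.1% lower. The upper 10% of the 93 control cDC2 held 87.3% of their *Hmox1* UMIs, so the summed difference rests on few control cells. A UMI was found in 18.3% of control and 11.5% of creatine cDC2, and after thinning to 2000 UMIs in 5 of 92 and 0 of 26. *Trf* in cDC2 lay just short of the fold, at 72.2 against 48.3 CPM, 0.58 (−0.12 to 1.24). *C1qa* held 2 UMIs there against 248 in the control, and *C1qb* none against 338, with 4 of the 5 macrophage markers measured lower. *Apoe* was the 1 higher, at 561 CPM against 49.6 CPM in the control. The list sums, 735.5 CPM in control and 652 CPM in creatine cells, therefore do not show the lower markers. The 8 dividing markers measured were lower there, with a list sum of 786 and 294 CPM, and 4 of 5 classical monocyte markers higher, with a sum of 1413 and 2546.5 CPM. The part of these transcripts in either DC difference was not tested.

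The other classes showed no member past the fold among those with at least 50 UMIs. *Ccr7*+ DCs had 2 such members, with *Ftl1* at a log2 ratio of 0.57 (0.40–0.74) in only 10 creatine cells, and 15.2% of genes higher and 12.5% lower. pDCs had 3, with *Tfrc* at −0.55 (−1.10 to −0.02), against 8.41% higher and 8.13% lower. Dividing CD8 T cells had 4, with *Tfrc* at 0.20 (0.11–0.30), against 3.62% and 3.52%. Non-dividing CD8 T cells had 3, with *Tfrc* at −0.03 (−0.37 to 0.32) and *Fth1* at −0.12 (−0.19 to −0.06), against 4.28% and 3.29%. *Hmox1* held 32 UMIs in control and 16 in creatine non-dividing CD8 T cells, under the minimum, and the macrophage list in these cells summed to 268 and 117 CPM. Its part was not tested.

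Other genes of the pathway were read from gene lists in macrophages, classical monocytes and non-dividing CD8 T cells. Of all genes, 2.63% were higher and 4.29% lower by the fold in creatine macrophages. In classical monocytes these shares were 7.48% and 7.6%, and in non-dividing CD8 T cells 4.28% and 3.29%. They stand beside the counts of every list below, which hold few genes each. Of 9 genes of iron and heme uptake, 6 reached 50 UMIs in macrophages, and *Cd163*, the scavenger receptor of hemoglobin, was the 1 past the fold, lower at 1.75 against 6.03 CPM (−1.78, −2.71 to −0.96, on the log2 scale). The list median of the log2 ratio was −0.15, beside −0.01 over all genes. In classical monocytes 2 of 5 were lower, *Slc39a14*, an importer of iron that is not bound to transferrin, at 10.4 against 20.5 CPM, and *Lcn2*, which binds bacterial iron carriers, at 4.27 against 7.46 CPM. *Slc39a14* was also lower in non-dividing CD8 T cells, 6.33 against 11.3 CPM, the 1 of 2 measured.

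Of 9 genes that make, move or break down heme, 7 were measured in classical monocytes, where 2 were higher and none lower, *Alas1*, the first enzyme of heme synthesis, at 60.7 against 38.7 CPM (0.65, 0.39–0.92) and *Flvcr1*, a heme exporter, at 53.7 against 29.1 CPM (0.88, 0.59–1.18), while the list median was −0.06 beside 0.03 over all genes. Iron export genes were few: 2 of 4 were measured in macrophages, 1 in classical monocytes and 0 in non-dividing CD8 T cells, none past the fold. Of the heme genes in macrophages 0 of 8 and in non-dividing CD8 T cells 0 of 7 passed the fold. *Blvrb*, a gene of this heme list, stood at 398 and 492.5 CPM in macrophages.

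Of 10 regulators of iron and heme genes, *Spic*, a transcription factor of macrophages that recycle red cells, was the 1 past the fold in each of macrophages and classical monocytes. It was lower in creatine macrophages, 7.52 against 12.6 CPM (−0.74, −1.19 to −0.32), and higher in creatine classical monocytes, 84 against 9 UMIs (2.38, 1.38–3.55). *Aco1* and *Ireb2*, which encode the iron regulatory proteins that bind the hairpins above, were within the fold in the 3 classes. In macrophages *Aco1* stood at 30.1 and 31.8 CPM and *Ireb2* at 32.5 and 30.3 CPM. *Bach1*, which represses *Hmox1*, was at 205 and 305 CPM in classical monocytes (0.57, 0.46–0.69), just short of the fold, and *Nfe2l2*, which activates it, at 136 and 196 CPM (0.52, 0.39–0.66). In non-dividing CD8 T cells 0 of 9 regulators passed the fold. Of 6 genes of mitochondrial iron, 5 were measured in each of the 3 classes and none passed the fold.

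Targets of NRF2, the regulator that *Nfe2l2* encodes and that also drives *Hmox1* and both ferritin chains, were read in classical monocytes. Of 7 measured, 2 were higher and 2 lower, where 7.48% and 7.6% of all genes were. The list median was −0.10, beside 0.03 over all genes, and the part of NRF2 in the *Hmox1* and *Fth1* differences was not tested. *Gsr*, glutathione reductase, was higher at 412 against 246 CPM (0.74, 0.64–0.85) and *Txnrd1*, thioredoxin reductase, at 73.8 against 43.8 CPM (0.75, 0.51–1.00). *Slc7a11*, the cystine importer, was lower at 11.3 against 22.1 CPM (−0.97, −1.41 to −0.54) and *Srxn1*, sulfiredoxin, at 2.85 against 7.69 CPM (−1.43, −2.28 to −0.61). In macrophages *Slc7a11* was the 1 of 7 past the fold, lower, with 41 against 192 UMIs (−1.34, −1.86 to −0.85), and in non-dividing CD8 T cells 0 of 5 passed it. Stress genes that cell handling can induce moved as well. *Hspa1a* was lower in the creatine library, at 37.0 against 78.1 CPM in macrophages and 19.4 against 47.5 CPM in classical monocytes, and *Hspa1b* at 13.7 against 38.1 CPM and 8.94 against 27.5 CPM. In classical monocytes 3 of the 12 stress genes were higher (*Egr1*, *Ier2* and *Junb*) and 3 lower (*Hspa1a*, *Hspa1b* and *Ier3*), in non-dividing CD8 T cells *Fos* was higher, with 127 against 44 UMIs, and their part in the *Hmox1* difference was not tested.

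The members did not share 1 pattern over the classes. Pearson's r of log2(CPM + 10) was taken over 18 points, the 9 classes in both libraries, which share libraries and differ in depth, and it is a description. *Slc11a1* and *Hmox1* were the closest pair (r = 0.942), followed by *Fth1* and *Ftl1* (0.864), while *Tfrc* stood apart, with r from −0.452 to 0.057 with the other 6. Among 10363 genes, those nearest to *Tfrc* were *Galk1* (0.946), *mt-Cytb* (0.930) and *Sms* (0.918). *Fth1* lay nearest to *Blvrb* (0.975), then *Atp6v0d1* and *Rab14* (both 0.942), and *Ftl1* to *Arl8a* (0.968), *Lgmn* (0.966) and *Bri3* (0.957). *Hmox1* lay nearest to *Trem2* (0.969), *C5ar1* (0.966) and *Msr1* (0.962), and *Slc11a1* to *Tlr8* (0.976), *Lrp1* (0.961) and *Pla2g7* (0.960). *Slc40a1* lay nearest to *Ptprm* (0.990), *Gm13710* (0.955) and *Gas6* (0.95), a likeness set by the 2 macrophage points.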

How the data were processed

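The authors processed the reads of both libraries with Cell Ranger (3.0.2 in the submitters' processing notes, genome mm10, which is GRCm38) and deposited a matrix of raw UMI counts per gene and cell for each, without normalization. Lists of genes and barcodes hold no measurement. Cells were kept with at least 300 UMIs, 100 genes and at most 25% mt- UMIs. A cell other than a CD8 T cell entered a class with at least 3 markers of it and a larger share of its markers than of any other such class. Macrophages, monocytes and neutrophils also needed 3 myeloid markers, and cDC1, cDC2 and *Ccr7*+ DCs a UMI of *Flt3*, *Zbtb46*, *Itgax*, *H2-DMb2* or *Dpp4*. CD8 T cells needed a UMI of *Cd8a* or *Cd8b1*, 3 T cell markers, no *Cd4* or *Foxp3*, and no other class. Myeloid cells with 3 T cell markers and NK cells with 3 T cell or myeloid markers were left out. So were CD8 T cells with 3 myeloid or B cell markers. These exclusions stood in for a doublet caller and did not cover every pair of lineages. The members, markers and lists were chosen with earlier results of these data known, and the gate after the files had been read.

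UMIs were summed per class and library and divided by the class total (CPM). With 1 library per group no test was made. Levels carry exact Poisson, ratios exact conditional binomial and shares exact Clopper-Pearson 95% intervals. A gene with at least 50 UMIs over both libraries was past the fold at 1.5, and 1 UMI was worth 0.0677 CPM in control macrophages and 8.43 CPM in creatine *Ccr7*+ DCs, the extremes of the 9 classes. Named genes were the 7 members, genes of the fixed lists past the fold in macrophages, classical monocytes or non-dividing CD8 T cells, and the 3 genes nearest to each member, markers left out (those of *Trf* are not reported here). *Blvrb*, *Aco1*, *Ireb2*, *Bach1* and *Nfe2l2* are list genes named outside that rule, after their values were seen. Alternatives were a stricter cell filter, gates of 2 and 4 markers, TMM scaling, totals without mt- and Rpl or Rps genes, the mean of per-cell CPM, leaving out the 10% of cells with the most UMIs, a fold of 2, thinning to 1000 UMIs, no UMI minimum and a pseudocount of 1. The code was checked on built data. Cells given only the markers of a class and the myeloid list entered the macrophage, monocyte and pDC gates, and the other gates were not checked. Ratios were checked on Poisson counts without the unevenness between cells, so the coverage of their intervals in the real cells was not tested. Hairpins and positions are from GENCODE M21. Calculations used Python 3.11.15, numpy 2.4.6, pandas 2.3.3, scipy 1.17.1, matplotlib 3.10.9 and edgeR 4.0.16 (TMM factors only).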

Additional observations from a re-analysis of the deposited data

Results flagged for a closer look

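Opposite directions in a pair of classes were seen for 3 members, and none of these differences between classes was tested, since each class has 1 library per group. *Tfrc* was higher in the creatine library in macrophages (log2 ratio 0.90) and lower in pDCs (−0.55). *Fth1* was higher in nonclassical monocytes (0.46) and lower in classical monocytes (−0.97). *Ftl1* was higher in *Ccr7*+ DCs (0.57) and lower in classical monocytes (−0.49).

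*Slc40a1* was counted in cells outside the 9 classes, those gated by neutrophil markers, at 504.9 CPM (385–650) in 38 control cells and at 621.5 CPM (467–811) in 21 creatine cells, from 60 and 54 UMIs. Its level in macrophages was 18.6 and 8.27 CPM.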

How the results depend on the processing

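All 8 member ratios past the fold stayed past 1.5-fold, in the same direction, under the other cell filters, gates, scalings and weights that gave them a value. *Trf* in cDC1 and *Hmox1* in cDC2 had a value in only 5 of these alternatives, against 8 or 9 for the rest. Thinning was not among them. In thinned macrophages *Tfrc* stood at 26.1 CPM in control and 45.7 CPM in creatine cells at 2000 UMIs. At 1000 UMIs the order was opposite, 37.3 and 30.6 CPM, with a UMI in 31 and 8 cells. Called values of members, 3 higher and 5 lower, became 2 higher and 10 lower with a gate of 4 markers, 5 higher and 8 lower with equal weight for each cell, and 1 higher and 3 lower at a fold of 2. At a fold of 2, 3 members in place of 6 were higher in control macrophages than in control classical monocytes. *Hmox1* in macrophages passed the fold, at −0.63, only without the 10% of cells with the most UMIs. The *Slc40a1* ratio in macrophages ranged from −1.54 to −0.76, and that of *Tfrc* from 0.72 to 0.97. TMM moved the ratios between libraries by −0.0539 to 0.00708 on the log2 scale. *Trf* in cDC2, 0.58, went from −0.22 with a gate of 4 markers to 0.97 with equal weight. Gates of 2 or 4 markers also set the exclusions, so a gate of 2 left 826 and 292 macrophages, fewer than a gate of 3. The alternatives without barcodes found in both libraries and of classical monocytes without C1q UMIs were chosen after seeing the data. With a pseudocount of 1, the genes nearest to *Fth1* and *Ftl1* were the same 3 each. *Sms* gave way to *Ext2* for *Tfrc*, *Gas6* to *Folr2* for *Slc40a1*, *Trem2* to *Tmem104* for *Hmox1*, and *Tlr8* and *Pla2g7* to *Lpcat2* and *C5ar1* for *Slc11a1*. No paired analysis was possible because each group has 1 library. No replicate could be left out for the same reason.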

Other observations

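Cells gated by neutrophil markers, 38 control and 21 creatine cells, carried *Slc40a1* RNA in most cells. It was found in 27 and 17 of them (71.1% and 81.0%), and after thinning to 2000 UMIs in 15 of 28 and 15 of 21, against 0 of 502 and 0 of 800 NK cells. They held 3 UMIs of *Tfrc* in the control library and none in the creatine library. *Fth1* stood at 7027 CPM (6559–7521) and 9277 CPM (8648–9940) in them.

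Cells gated by melanoma markers, 16 control and 9 creatine cells of a sort for CD45.2+ cells, held *Tfrc* at 302 CPM (231–389) and 283 CPM (234–339.5), and *Hmox1* at 201.5 CPM (144–274) and 92.0 CPM (65.1–126).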
